A study of Homo sapiens with 21 samples.

Results

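The ligands and receptors of the tumor necrosis factor (TNF) superfamily were followed in OCI-AML5, a human acute myeloid leukemia cell line, during exposure to the small molecule UM171. Members were chosen by gene symbol: every TNFSF and TNFRSF gene, together with TNF, LTA, LTB, LTBR, CD40, CD40LG, CD27, CD70, FAS, FASLG, EDAR, EDA2R and NGFR. The rule uses names and no measured value. It found 45 of the 58174 genes in the files, 17 ligands and 28 receptors.

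RNA was sequenced from 21 libraries in 7 groups of 3. The time course held cells in the vehicle DMSO, labelled as 72 h, and cells in 500 nM UM171 for 6, 24, 48 and 72 h. A further pair of groups held cells that express sgEPCR, a guide RNA against the endothelial protein C receptor (EPCR, gene PROCR), in DMSO or in 500 nM UM171 for 24 h. Control cells for this pair were the libraries of the time course in DMSO and in UM171 at 24 h. The labels name no guide in them, while the study describes its control cells as carrying sgAAVS1, a guide against a safe-harbor locus, so that loss of EPCR, clonal origin and guide cannot be told apart here. The sgEPCR cells are labelled as a clone, once as EPCR null and once as an EPCR knockdown. The study speaks of several independent sgEPCR clones, but the labels do not tie its libraries to them. Separate cultures are stated neither for control nor for sgEPCR libraries, so p-values measure the spread between libraries, which may be technical. DMSO libraries carry the 72 h label while the sgEPCR DMSO libraries carry 24 h, so that time in culture and the compared condition cannot be told apart in the comparisons of 6, 24 and 48 h with DMSO, of genotypes in DMSO, or of the responses of sgEPCR and control cells. Without DMSO libraries of control cells at 6, 24 and 48 h, the steps between times of UM171 have the same limit.

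TNF superfamily ligands are mostly trimeric membrane proteins that can be shed by proteases, and their receptors pass the signal on through short cytoplasmic adaptors. Many, but not all, receptors with a death domain recruit TRADD or FADD and can start apoptosis through caspase-8. Receptors without one bind TRAF proteins and activate NF-kB and MAP kinases, while decoy receptors hold ligand without passing on a full signal. In blood cells the family is known for survival of lymphocytes, costimulation of T cells and the killing of target cells.

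Library totals ran from 24.3 M to 51.5 M expected counts. Myeloid markers fixed for the line were present, with all 8 at a median of 1 TPM or more over the 21 libraries (TPM, a transcript level corrected for gene length and library total). Their summed level ran from 636 to 2453 TPM. The defining markers of T, B, natural killer and erythroid cells were mostly absent: of the 5 T cell markers 3 stayed under 1 TPM in every library, as did 3 of 5 for B cells, 3 of 4 for natural killer cells and 4 of 4 for erythroid cells. The exceptions were CD3D, TRAC, CD79A, CD79B and NCAM1. PROCR, the targeted gene, stood at 3.37 to 4.30 TPM in control DMSO and at 2.30 to 4.53 TPM in sgEPCR DMSO libraries, and at 48.5 TPM in each control UM171 24 h library against 4.23 to 8.94 TPM in sgEPCR UM171 libraries. A guide need not lower the level of the transcript, so the DMSO values neither check nor contradict the label. The share of counts on mitochondrial genes stood apart in a pair of libraries, at 35.9% (replicate 1 of sgEPCR DMSO) and 32.2% (replicate 2 of sgEPCR UM171), where the remaining 19 had 7.73% to 13.5%. For sgEPCR cells, counts of called members and some values are given with and without this pair of libraries, and the other values only with it.

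The sequences upstream of 3 members are shown because their RNA levels moved most differently between control and sgEPCR cells (TNFSF14 and TNFSF13B) or rose in both (TNFRSF9). Each holds the 250 bases before a RefSeq transcription start, 5′ to 3′ on the strand of the gene in GRCh38.p14. Capitals mark matches, on either strand, to the NF-kB (kappa B) consensus or to the AP-1 motif TGANTCA.
TNFSF14 (chr19:6670161-6670410, minus strand): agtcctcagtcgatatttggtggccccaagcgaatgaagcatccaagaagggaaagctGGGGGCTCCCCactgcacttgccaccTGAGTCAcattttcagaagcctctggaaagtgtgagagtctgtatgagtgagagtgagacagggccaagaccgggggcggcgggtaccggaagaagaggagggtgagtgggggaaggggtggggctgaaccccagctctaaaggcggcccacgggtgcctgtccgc
TNFRSF9 (chr1:7940840-7941089, minus strand): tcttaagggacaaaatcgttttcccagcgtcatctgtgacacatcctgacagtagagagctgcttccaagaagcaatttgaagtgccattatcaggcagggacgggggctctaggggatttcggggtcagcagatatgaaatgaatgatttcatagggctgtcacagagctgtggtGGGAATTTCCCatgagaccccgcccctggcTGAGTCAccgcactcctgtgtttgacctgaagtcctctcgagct
TNFSF13B (chr13:108269379-108269628, plus strand): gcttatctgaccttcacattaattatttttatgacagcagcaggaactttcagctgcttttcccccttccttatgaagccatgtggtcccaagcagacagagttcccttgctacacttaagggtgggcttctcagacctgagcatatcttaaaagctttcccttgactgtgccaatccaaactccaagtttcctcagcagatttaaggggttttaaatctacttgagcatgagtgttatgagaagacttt
TNFSF14 and TNFRSF9 each held 1 stretch matching the NF-kB consensus, read on both strands with an overlap, and 1 match to TGANTCA. The window of TNFSF13B held neither. Over all 35116 RefSeq windows, which reach 50 bases further past the start, 11.3% held an NF-kB match and 7.71% held TGANTCA. RefSeq windows were found for 29 of the 45 members, of which 10 had an NF-kB match and 7 a TGANTCA match in at least 1 of their windows. Counted by gene in the same way, 13.3% of all 27305 genes had an NF-kB match and 9.37% a TGANTCA match. FAS, TNFRSF9 and TNFSF14 had both. The 29 members with windows are not the tested members: LTA, TNFRSF19, TNFRSF25 and TNFSF11 had an NF-kB match but too few counts to be tested. Windows were found for 13 of the 18 members called in any comparison, and of these only TNFRSF14, TNFRSF9 and TNFSF14 had an NF-kB match. These matches are letters in a window around an annotated start, which need not be the start used in OCI-AML5.

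In DMSO, 10 members averaged over 10 TPM. CD70, the membrane ligand of CD27, was the highest, at 145, 184 and 177 TPM in the 3 libraries. The death receptor TNFRSF10B (TRAIL receptor 2) followed at 98.9, 102 and 106 TPM. TNFRSF1A, the main TNF receptor with a death domain, stood at 76.7, 76.6 and 74.4 TPM, and TNFRSF1B, the TNF receptor that binds TRAF2, at 49.4, 54.9 and 55.1 TPM. TNFSF10 (TRAIL), the ligand of TNFRSF10A and TNFRSF10B, stood at 59.4, 57.7 and 58.8 TPM. The summed level of all 17 ligands was 257 ± 21.8 TPM (SD, n = 3) and that of all 28 receptors 325 ± 9.22 TPM (SD, n = 3).

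Of the 45 members, 29 passed the filter on low counts in the time course (edgeR's filterByExpr) and 28 in the fit of control and sgEPCR cells, where TNFRSF11B did not pass. The other 16 were 8 ligands and 8 receptors that never exceeded 13 counts in a library. TNF itself had at most 3 counts in any library, and TNFSF11 (RANK ligand) and TNFRSF13B had 0 counts in all 21. The highest count was 13 for CD40LG, 8 for TNFRSF19, 7 for TNFSF18 and 6 for LTA. It was 2 for TNFSF12 and TNFRSF4, and 1 for EDAR, TNFRSF25, TNFSF15, TNFSF8, CD27, TNFRSF17 and TNFRSF18. At this depth 3 counts were taken as the smallest signal, which covers counting error only, and lower levels of these genes were not detectable. The decoy receptor TNFRSF6B was tested but stayed between 2.88 and 28.5 expected counts, and it shares sequence with the readthrough gene RTEL1-TNFRSF6B, which had 11 to 239 counts, so the split between them is uncertain.

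UM171 was followed by more and more changed members over time. A member was called changed where edgeR's quasi-likelihood test gave a p under 0.0001 after Benjamini-Hochberg adjustment over all tested genes and the change exceeded 2-fold. At 6 h, 5 of the 29 tested members rose and 0 fell, where 6.78% of all tested genes rose and 0.247% fell. By edgeR 7 members were lower at an unadjusted p under 0.05, as were 31.8% of all tested genes, and DESeq2 called 1 lower and limma 0. At 24 h, 8 rose and 1 fell (9.03% and 4.70% of all tested genes). At 48 h, 10 rose and 1 fell (11.7% and 4.67%). At 72 h, 12 rose and 2 fell (15% and 5.80%). These counts include FASLG, TNFRSF11B, CD40, NGFR, TNFRSF11A and TNFRSF9, which reached the cutoff of the filter in fewer than 3 DMSO libraries. They passed it through UM171 groups, which favours rises among them, so the counts are no support for a larger share of rises among members. Over the 4 times 12 members rose at least once and 4 fell at least once. The median log2 fold change of the tested members was 0.24, 0.23, 0.32 and 0.42 from 6 to 72 h, where that of all tested genes was 0.019, -0.008, -0.005 and 0.021. FASLG, which had 0 counts in DMSO, lay above these medians both as fitted and at its lower bound, so it could not move them. The medians include the members that passed the filter through UM171 groups, and are likewise no support for a general rise of members. Levels are averages over a culture, in which more RNA per cell and more cells of a kind cannot be told apart.

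**Figure D1:**
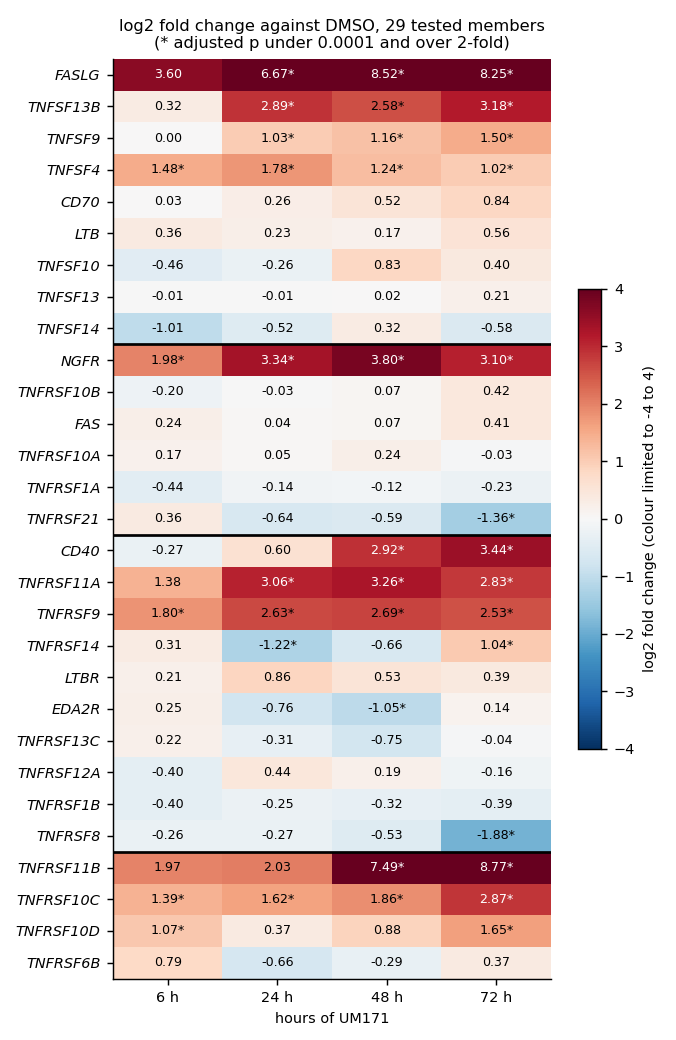
Log2 fold change against DMSO (colour and number) of the 29 tested members, by role from top to bottom (ligands, death domain receptors, TRAF-binding receptors, decoy receptors) and hours of UM171 from left to right, with stars for called changes. Stars gather in 4 ligands, in NGFR, in TNFRSF9, TNFRSF11A and CD40, and in 3 decoys, while most members of high level have none; the fitted values of FASLG depend on the prior count, since DMSO libraries had 0 counts.

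Among the ligands, TNFSF13B, TNFSF9, TNFSF4 and FASLG rose. TNFSF13B (BAFF, the B cell survival factor; chromosome 13, 108251240 to 108308484, GRCh38) stood at 9.69, 8.62 and 9.18 TPM in DMSO and at 13.0, 13.6 and 12.5 TPM at 6 h. It reached 65.3, 69.1 and 67.4 TPM at 24 h, 53.6, 53.3 and 48.4 TPM at 48 h, and 77.0, 82.3 and 84.1 TPM at 72 h. The libraries of each time lay above all DMSO libraries without overlap. Relative to DMSO its log2 fold change was 0.32 ± 0.08 at 6 h (SE, adjusted p = 0.0021 from edgeR, not called) and 2.89 ± 0.07 at 24 h (adjusted p = 3.2e-15). It was 3.18 ± 0.07 at 72 h (adjusted p = 4.5e-16). Its mean level at 72 h was 8.85 times that in DMSO. Most of the increase lay between 6 and 24 h, a step of 2.58 ± 0.07.

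TNFSF4 (OX40 ligand, a costimulator of T cells) moved earlier. It stood at 0.61, 0.90 and 1.30 TPM in DMSO, at 2.42, 2.91 and 3.12 TPM at 6 h and at 3.57, 4.21 and 3.57 TPM at 24 h. At 72 h it stood at 1.94, 1.66 and 2.96 TPM. The time points were all above DMSO, with the highest level at 24 h. In log2 fold change it was 1.48 ± 0.16 at 6 h (SE, edgeR adjusted p = 6e-07), 1.78 ± 0.16 at 24 h and 1.02 ± 0.16 at 72 h. The call at 72 h was lost without DMSO replicate 1 (log2 fold change 0.85), without DMSO replicate 2 (0.98) or without UM171 72 h replicate 3 (0.91).

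TNFSF9 (4-1BB ligand) stood at 5.80, 6.47 and 6.56 TPM in DMSO and at 13.6, 12.5 and 13.3 TPM at 24 h. By 72 h it stood at 17.0, 19.5 and 19.5 TPM. In log2 fold change TNFSF9 had 0.00 ± 0.11 at 6 h, 1.03 ± 0.10 at 24 h (SE, edgeR adjusted p = 7.8e-08) and 1.4998 ± 0.098 at 72 h (adjusted p = 2.7e-10). The value at 24 h lay close to the 2-fold limit and was not called without DMSO replicate 1 (0.99) or without UM171 24 h replicate 1 (1.00).

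FASLG, the ligand that kills FAS-bearing cells, had 0 counts in all 3 DMSO libraries and 1, 1 and 2 counts at 6 h. It had 18, 16 and 8 counts at 24 h, 47, 51 and 31 at 48 h, and 31, 38 and 46 at 72 h. With 3 counts over the DMSO group as the floor, it was at least 12.4-fold higher at 24 h, 43.4-fold at 48 h and 38.7-fold at 72 h, on total-count scaling. Its level stayed low, with a highest value of 1.34 TPM.

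**Figure D2:**
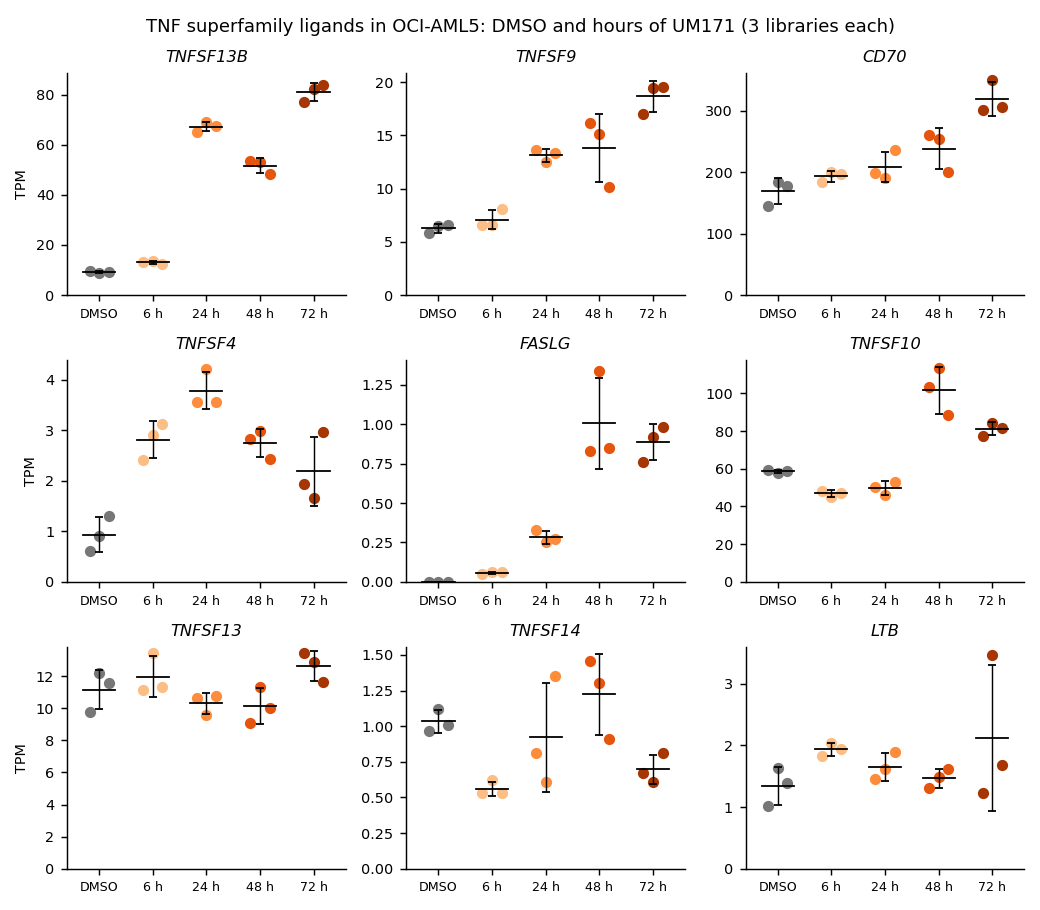
TPM of the 9 tested ligands in each library of the time course (points), with the group mean (line) and SD (bar, n = 3), for DMSO and hours of UM171. TNFSF13B steps up between 6 and 24 h, TNFSF4 is highest at 24 h (3.57 to 4.21 TPM), FASLG starts from 0, and TNFSF13, TNFSF14 and LTB show no called change.

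The other ligands had no called change against DMSO at any time. CD70 stood at 300, 351 and 305 TPM at 72 h, above every DMSO library, with a log2 fold change of 0.84 ± 0.08 (SE, edgeR adjusted p = 2.7e-08) that stayed under the 2-fold limit. TNFSF10 stood at 48.4, 45.1 and 47.3 TPM at 6 h, below every DMSO library, and at 103, 113 and 88.4 TPM at 48 h, above every one. Its log2 fold change was -0.46 ± 0.06 at 6 h (edgeR adjusted p = 2.2e-06) and 0.83 ± 0.05 at 48 h (adjusted p = 3.9e-10), and the step from 24 to 48 h was called, at 1.09 ± 0.06. TNFSF14 (LIGHT, a ligand of TNFRSF14 and LTBR) stood at 0.97, 1.12 and 1.01 TPM in DMSO and at 0.53, 0.62 and 0.53 TPM at 6 h, with a log2 fold change of -1.01 ± 0.21 (edgeR adjusted p = 0.00051). TNFSF13 (APRIL) ran from 9.11 to 13.5 TPM over the 15 libraries, and LTB (lymphotoxin beta) from 1.01 to 3.47 TPM. The log2 fold change at 72 h was 0.21 ± 0.07 for TNFSF13 and 0.56 ± 0.31 for LTB.

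Of the 6 tested death domain receptors, NGFR rose and TNFRSF21 fell. NGFR, the neurotrophin receptor p75, stood at 0.11, 0.13 and 0.16 TPM in DMSO, at 0.58, 0.71 and 0.47 TPM at 6 h and at 1.95, 1.77 and 1.75 TPM at 48 h. Every UM171 library lay above every DMSO library. Its log2 fold change was 1.98 ± 0.23 at 6 h (SE, edgeR adjusted p = 1.2e-06), 3.80 ± 0.20 at 48 h and 3.10 ± 0.21 at 72 h. TNFRSF21 (death receptor 6) stood at 13.1, 12.9 and 13.2 TPM in DMSO and first higher, at 18.8, 19.5 and 18.1 TPM, at 6 h. It then stood at 8.70, 8.92 and 8.10 TPM at 24 h and at 4.58, 5.68 and 5.77 TPM at 72 h. The log2 fold change was 0.36 ± 0.06 at 6 h (edgeR adjusted p = 8.6e-05, under 2-fold), -0.64 ± 0.06 at 24 h and -1.36 ± 0.07 at 72 h (adjusted p = 7.4e-12), and only the last was called.

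The other tested death domain receptors, TNFRSF10B, TNFRSF1A, TNFRSF10A and FAS, had no called change at any time. At 72 h the log2 fold change was 0.42 ± 0.06 for TNFRSF10B, 0.41 ± 0.06 for FAS and -0.03 ± 0.05 for TNFRSF10A. TNFRSF1A had -0.44 ± 0.05 at 6 h (SE, edgeR adjusted p = 5.3e-07) and -0.23 ± 0.05 at 72 h. FAS stood at 10.1, 9.57 and 10.4 TPM in DMSO and at 13.4, 14.2 and 13.4 TPM at 72 h. TNFRSF10A stood at 21.9, 25.5 and 24.9 TPM in DMSO and at 24.3, 25.5 and 24.8 TPM at 72 h. At 48 h a single library differed from its group: in replicate 3 TNFRSF10B stood at 74.4 TPM against 116 and 121 TPM in replicates 1 and 2, and TNFRSF1A at 101 TPM against 73.1 and 70.0 TPM. That library also had the highest mitochondrial share of the time course, 13.5%, whose part in these values was not tested.

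Of the 10 tested TRAF-binding receptors, TNFRSF9, TNFRSF11A and CD40 rose, TNFRSF8 fell, EDA2R fell at 48 h and TNFRSF14 fell before it rose. TNFRSF9 (4-1BB, the receptor of TNFSF9; chromosome 1, 7915871 to 7943165) stood at 0.17, 0.40 and 0.10 TPM in DMSO and at 0.41, 0.45 and 0.67 TPM at 6 h. At 24 h it stood at 0.86, 0.83 and 0.87 TPM. In log2 fold change TNFRSF9 rose by 1.804 ± 0.196 at 6 h (SE, edgeR adjusted p = 5.8e-07), 2.63 ± 0.18 at 24 h and 2.53 ± 0.18 at 72 h. TNFRSF11A (RANK, the receptor of TNFSF11) stood at 0.07, 0.12 and 0.24 TPM in DMSO and at 0.85, 0.97 and 1.10 TPM at 24 h, with a log2 fold change of 3.06 ± 0.23 (edgeR adjusted p = 3.5e-09). At 6 h the value was 1.38 ± 0.27 with an adjusted p of 0.00034 and was not called. CD40, the receptor through which T cells license antigen-presenting cells, was first called at 48 h. It stood at 0.23, 0.21 and 0.15 TPM in DMSO, at 0.49, 0.28 and 0.22 TPM at 24 h, at 2.17, 2.39 and 1.85 TPM at 48 h and at 1.91, 2.92 and 3.67 TPM at 72 h. In log2 fold change CD40 stood at 0.60 ± 0.42 at 24 h (edgeR adjusted p = 0.21) and 2.92 ± 0.34 at 48 h (adjusted p = 5.3e-07).

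TNFRSF8 (CD30) stood at 6.58, 6.64 and 6.38 TPM in DMSO, at 4.99, 4.73 and 2.82 TPM at 48 h and at 1.83, 1.81 and 1.53 TPM at 72 h, where its log2 fold change was -1.88 ± 0.12 (SE, edgeR adjusted p = 2.2e-10). TNFRSF14 (HVEM, a receptor of TNFSF14) stood at 6.18, 7.47 and 6.61 TPM in DMSO. It fell at 24 h to 3.11, 2.53 and 2.97 TPM and was higher than DMSO at 72 h, at 13.0, 17.9 and 13.9 TPM. The log2 fold change was -1.22 ± 0.12 at 24 h (edgeR adjusted p = 1.4e-07) and 1.04 ± 0.11 at 72 h (adjusted p = 1.2e-07), the latter not called without UM171 72 h replicate 2 (0.95). EDA2R, a receptor of ectodysplasin A2, stood at 10.2, 9.72 and 10.1 TPM in DMSO and at 4.91, 4.59 and 4.70 TPM at 48 h, and was back at 11.4, 11.4 and 11.8 TPM at 72 h. The fall at 48 h was -1.05 ± 0.07 in log2 fold change (edgeR adjusted p = 2.1e-10) and was not called without UM171 48 h replicate 2 (-0.98).

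The remaining TRAF-binding receptors had no called change. At 72 h the log2 fold change was -0.39 ± 0.05 for TNFRSF1B, -0.16 ± 0.09 for TNFRSF12A (the TWEAK receptor), -0.04 ± 0.11 for TNFRSF13C (the BAFF receptor) and 0.39 ± 0.20 for LTBR, the lymphotoxin beta receptor. TNFRSF1B was also lower at 6 h, at -0.40 ± 0.05 (SE, edgeR adjusted p = 2.9e-06). TNFRSF12A ran from 13.9 to 27.0 TPM, TNFRSF13C from 0.53 to 1.41 TPM and LTBR from 0.60 to 1.27 TPM over the 15 libraries.

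**Figure D3:**
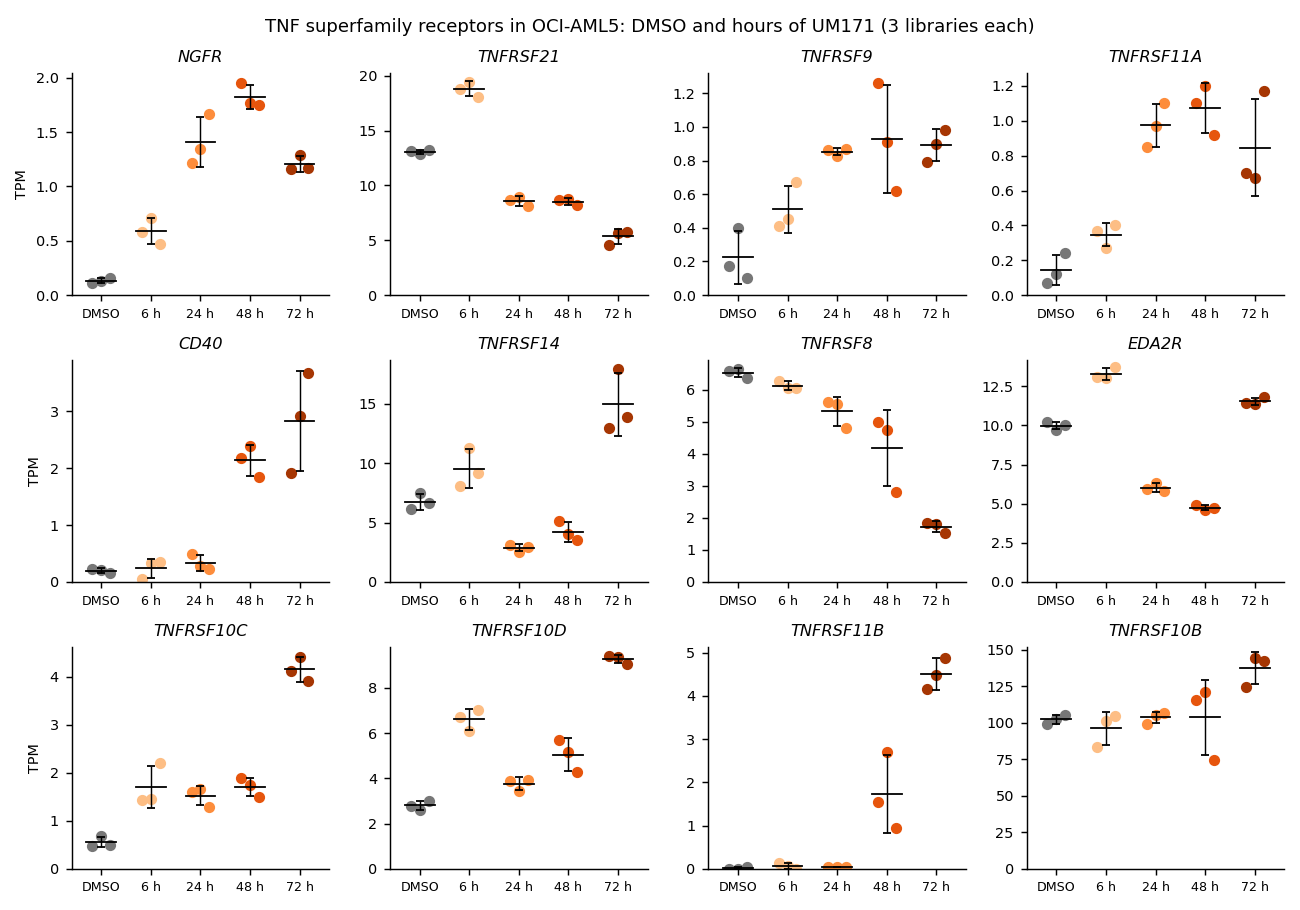
TPM of the 11 receptors called at any time and of TNFRSF10B, the receptor of highest level, in each library of the time course (points), with the group mean (line) and SD (bar, n = 3). CD40 and TNFRSF11B leave the floor at 48 h, NGFR and TNFRSF9 are higher from 6 h on, and TNFRSF14 and EDA2R are low at 24 and 48 h and higher again at 72 h.

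Of the 4 decoy receptors, 3 rose. TNFRSF10C, a TRAIL decoy held by a lipid anchor, stood at 0.48, 0.68 and 0.50 TPM in DMSO, at 1.43, 1.46 and 2.21 TPM at 6 h and at 4.12, 4.42 and 3.91 TPM at 72 h. In log2 fold change TNFRSF10C rose by 1.39 ± 0.22 at 6 h (SE, edgeR adjusted p = 3.7e-05) and 2.87 ± 0.20 at 72 h (adjusted p = 4.7e-10). The call at 6 h was lost without any of the 3 DMSO libraries or without UM171 6 h replicate 2 or 3, with log2 fold changes from 1.18 to 1.47 in those fits. TNFRSF10D, a TRAIL decoy with a truncated death domain, stood at 2.78, 2.62 and 3.01 TPM in DMSO and at 6.71, 6.09 and 7.02 TPM at 6 h. It was lower at 24 h, at 3.89, 3.43 and 3.95 TPM, and reached 9.43, 9.35 and 9.07 TPM at 72 h. It rose by a log2 fold change of 1.07 ± 0.08 at 6 h (edgeR adjusted p = 1.2e-08), 0.37 ± 0.09 at 24 h and 1.65 ± 0.08 at 72 h (adjusted p = 5.6e-12). The TRAIL receptors and decoys TNFRSF10A to TNFRSF10D lie within 205.0 kb of chromosome 8 and are close in sequence, so that the share of reads RSEM gave to each is uncertain.

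TNFRSF11B (osteoprotegerin, the soluble decoy of RANK ligand) had 0, 0 and 1 counts in DMSO and 1, 3 and 2 counts at 24 h. It had 113, 89 and 44 counts at 48 h and 179, 210 and 233 counts at 72 h, up to 4.89 TPM. From the summed counts the ratio to DMSO was 248 at 48 h, with an exact 95% counting interval from 44.2 to 9846, and 628 at 72 h, from 112 to 24861. Like CD40, it was near its DMSO level until 24 h.

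From step to step, 7 of the 29 members changed between 6 and 24 h, where 10.0% of all tested genes did. Between 24 and 48 h 4 changed (2.85%), and between 48 and 72 h 5 did (3.35%). The members of the first step were FASLG, TNFSF13B, TNFRSF11A, NGFR and TNFSF9, which rose, and EDA2R and TNFRSF14, which fell. TNFRSF11B, CD40, FASLG and TNFSF10 rose in the second step. Of these, TNFRSF11B and CD40 reached the cutoff of the filter in fewer than 3 libraries of each of DMSO, 6 h and 24 h. They passed it through the later groups, which favours a rise. In the first step a rise of FASLG was likewise favoured, with 0 libraries of DMSO and of 6 h at the cutoff. The step counts are therefore no support for a larger share of changes among members. In the last step TNFRSF14 (log2 fold change 1.70 ± 0.11), TNFRSF11B, EDA2R (1.19 ± 0.07) and TNFRSF10C rose and TNFRSF8 fell (-1.35 ± 0.12). Without UM171 24 h replicate 2 the second step kept 2 calls, having lost CD40 and FASLG, and the last step kept 3 without any of UM171 48 h replicate 1 or 3 or the 72 h libraries, in each of which TNFRSF11B and TNFRSF10C were lost. FASLG was called in 10 of the 15 fits that left out 1 library in the first step and in 8 of them in the second. EDA2R in the first step lay at the 2-fold limit (-1.01 ± 0.06) and was called in 8 of those 15 fits.

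The levels of known partners differed widely. For TNFSF13B, which rose, the receptor TNFRSF13C stood at 0.53 to 1.41 TPM, while TNFRSF13B had 0 counts and TNFRSF17 at most 1. TNFSF4 rose where TNFRSF4 had at most 2 counts, and CD70 was the most abundant ligand where CD27 had at most 1. TNFRSF11A and TNFRSF11B rose where TNFSF11 had 0 counts in every library, though TNFRSF11B also binds TNFSF10, which stood at 45.1 to 113 TPM. CD40 rose where CD40LG had at most 13 counts. Both partners rose for TNFSF9 and TNFRSF9. FASLG rose beside a FAS level with a log2 fold change of 0.41 ± 0.06 at 72 h. These levels describe the leukemia cells alone, which were the only cells sequenced.

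Downstream of the receptors, 6 of the 38 tested genes of a list of 39 adaptors, ligases, kinases, caspases and inhibitors rose at 72 h and 0 fell, against the 15% and 5.80% of all tested genes given above. DESeq2 and limma called 0 lower, while by edgeR 19 (and 37.4% of all tested genes) were lower at an unadjusted p under 0.05, and the median log2 fold change of the list was -0.13. The largest called changes were those of LITAF, named as a TNF factor induced by lipopolysaccharide (1.57 ± 0.04, SE), BIRC3, the cIAP2 ubiquitin ligase (1.47 ± 0.19), TRAF1, an adaptor of the TRAF-binding receptors (1.44 ± 0.07), and TNFAIP8 (1.41 ± 0.05). In TPM, LITAF went from 21.04 ± 0.405 to 68.7 ± 3.59 (SD, n = 3), TNFAIP8 from 64.0 ± 2.99 to 164 ± 2.24, TRAF1 from 2.46 ± 0.114 to 6.97 ± 0.190 and BIRC3 from 0.230 ± 0.010 to 0.640 ± 0.078.

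In sgEPCR cells UM171 was followed within 24 h by the rise of TNFSF14, TNFRSF9, NGFR and TNFRSF10D and the fall of TNFRSF8 and TNFRSF21, 4 and 2 of the 28 tested members. NGFR and TNFRSF9 reached the cutoff of the filter in fewer than 3 libraries of either DMSO group and passed it through UM171 groups, which favours a rise. Over all tested genes 6.99% rose and 3.33% fell in this comparison. The median log2 fold change of the members was 0.47, and that of all tested genes -0.01. The spread of this fit was wide, with a common biological coefficient of variation of 0.187 against 0.0564 in the time course. Without the 2 libraries of high mitochondrial share, which leaves only 2 libraries in each sgEPCR group, it was 0.0411. In that fit 12 members were called, 10 up and 2 down (9.98% and 5.72% of all tested genes). The 6 further ones were FASLG (log2 fold change 3.53), CD40 (2.74), TNFRSF11A (1.61), TNFRSF14 (1.51), FAS (1.21) and TNFSF9 (1.01), all higher. FASLG and CD40 reached the cutoff of the filter in 0 libraries of either DMSO group in the fit of 12 libraries, and likewise passed it through UM171 groups. The counts and the median include such members and are no support for a larger share of rises among members.

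**Figure D4:**
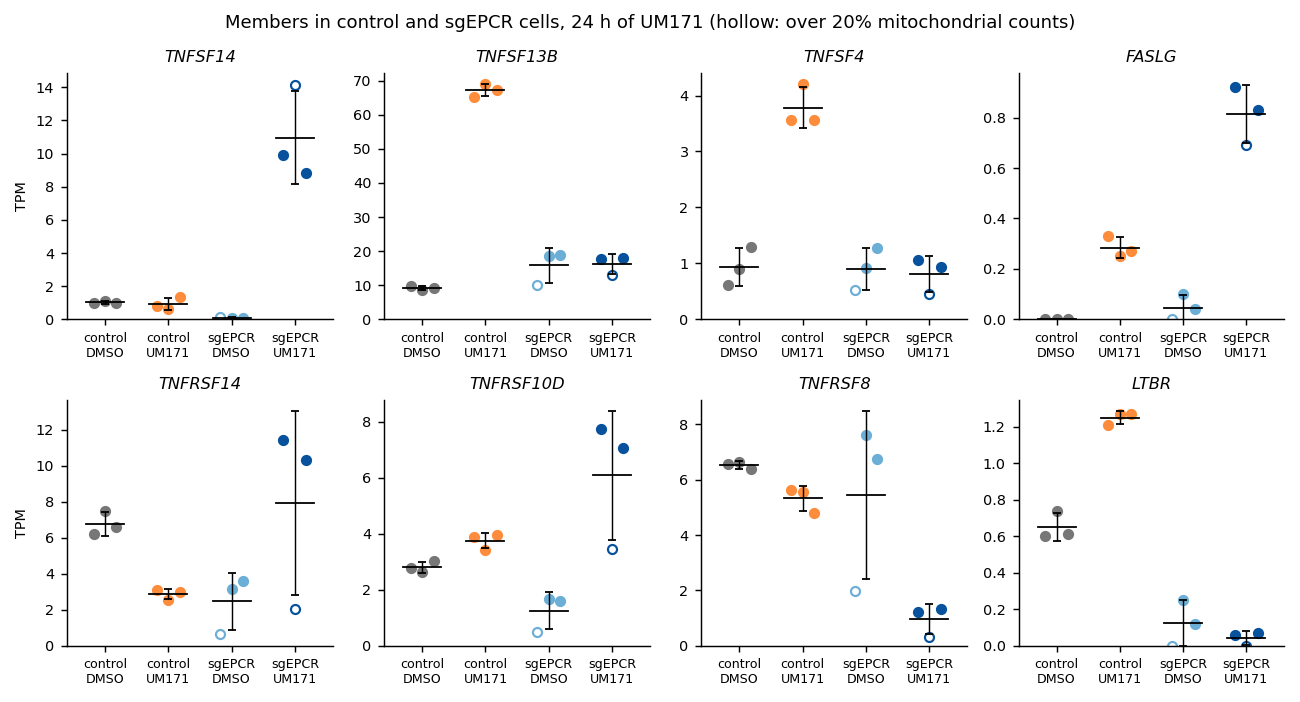
TPM of 8 members in control and sgEPCR cells, in DMSO and after 24 h of UM171, in each library (points), with the group mean (line) and SD (bar, n = 3). Hollow points are the 2 libraries with over 20% mitochondrial counts, of which that in sgEPCR UM171 is the lowest of its group for each member shown but TNFSF14, where it is the highest at 14.1 TPM.

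The difference between the responses of the 2 kinds of cell was tested as an interaction, in which the DMSO libraries of control cells are labelled 72 h and those of sgEPCR cells 24 h. TNFSF14 and TNFRSF10D responded more in sgEPCR cells and TNFSF13B less, 2 and 1 of the 28 tested members, where 3.60% and 4.17% of all tested genes did. Without the 2 libraries of high mitochondrial share 7 members were called, 4 up and 3 down (9.28% and 9.79% of all tested genes). These added TNFRSF14 and FAS, which responded more, and TNFSF4 and TNFRSF8, which responded less. The sgEPCR cells were sequenced at 24 h only, so responses that differ in size and in timing cannot be told apart. In control cells TNFRSF10D averaged 3.76 TPM at 24 h of UM171 but 6.61 TPM at 6 h and 9.28 TPM at 72 h. TNFRSF14 averaged 2.87 TPM at 24 h and 14.96 TPM at 72 h, whereas TNFSF14 averaged at most 1.22 TPM at any time, at 48 h.

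TNFSF14 (chromosome 19, 6661253 to 6670588) changed most. It stood at 0.97, 1.12 and 1.01 TPM in control DMSO and at 0.81, 0.61 and 1.35 TPM in control UM171. In sgEPCR cells it stood at 0.13, 0.08 and 0.09 TPM in DMSO and at 9.92, 14.1 and 8.84 TPM in UM171. The sgEPCR UM171 libraries lay above, and the sgEPCR DMSO libraries below, all control libraries. The log2 fold change to UM171 was 6.51 ± 0.67 in sgEPCR cells (SE, edgeR adjusted p = 1.4e-05) and -0.49 ± 0.54 in control cells from the same fit (adjusted p = 0.5), a difference of 7.003 ± 0.85 (adjusted p = 8e-05). The difference was 6.72 ± 0.31 (adjusted p = 2.2e-10) without the 2 libraries of high mitochondrial share. Leaving out 1 library at a time gave differences from 6.13 to 7.57 and adjusted p up to 0.0005, and the call held only without sgEPCR UM171 replicate 2 or 3. Its neighbours on chromosome 19, CD70 and TNFSF9, which lie with it within 139.6 kb, had differences of 0.35 ± 0.33 and -0.08 ± 0.38.

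TNFSF13B went the other way. In sgEPCR cells it stood at 10.0, 18.5 and 19.0 TPM in DMSO and at 17.6, 12.9 and 18.1 TPM in UM171, where control cells went from 8.62 to 9.69 TPM to 65.3 to 69.1 TPM. The sgEPCR groups overlapped each other. The log2 fold change was -0.12 ± 0.14 in sgEPCR cells (SE, edgeR adjusted p = 0.51) and 2.90 ± 0.15 in control cells, a difference of -3.02 ± 0.21 (adjusted p = 1.8e-06). The difference was -3.07 ± 0.08 without the 2 libraries of high mitochondrial share. It was called in 12 of 12 fits that left out 1 library, between -3.20 and -2.90.

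TNFSF4 and FASLG did not pass the limits for a difference. TNFSF4 stood at 0.53, 0.91 and 1.28 TPM in sgEPCR DMSO and at 1.06, 0.45 and 0.93 TPM in sgEPCR UM171, which overlapped. Its difference between responses was -2.03 ± 0.27 (SE, edgeR adjusted p = 0.00015), and it was called without the 2 libraries of high mitochondrial share (-2.06 ± 0.28, adjusted p = 1.2e-05). FASLG had 0, 4 and 2 counts in sgEPCR DMSO and 38, 28 and 41 counts in sgEPCR UM171, with a log2 fold change of 3.94 ± 0.48 (adjusted p = 0.00014). Among ligands without a called value in sgEPCR cells, CD70 had a log2 fold change to UM171 of 0.62 ± 0.24, TNFSF9 of 0.96 ± 0.27, TNFSF13 of 0.31 ± 0.11, LTB of 0.26 ± 0.25 and TNFSF10 of -0.37 ± 0.22.

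Among the receptors, TNFRSF10D stood at 0.50, 1.65 and 1.60 TPM in sgEPCR DMSO and at 7.75, 3.44 and 7.06 TPM in sgEPCR UM171, without overlap. Its log2 fold change was 2.08 ± 0.15 (SE, edgeR adjusted p = 1.1e-06) against 0.39 ± 0.14 in control cells, a difference of 1.70 ± 0.21 (adjusted p = 7.7e-05). It was 1.61 ± 0.13 (adjusted p = 5e-08) without the 2 libraries of high mitochondrial share. The call held in 2 of 12 fits that left out 1 library, those without sgEPCR DMSO replicate 1 or sgEPCR UM171 replicate 2, with differences from 1.54 to 1.77 over all of them. TNFRSF9 and NGFR rose in both kinds of cell. TNFRSF9 stood at 0.02, 0.07 and 0.05 TPM in sgEPCR DMSO and at 1.09, 0.65 and 1.07 TPM in sgEPCR UM171, with a log2 fold change of 3.84 ± 0.24 and a difference between responses of 1.21 ± 0.33 (adjusted p = 0.017). For NGFR the log2 fold change was 3.39 ± 0.22 in sgEPCR and 3.36 ± 0.20 in control cells, a difference of 0.03 ± 0.25 (adjusted p = 0.95).

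TNFRSF14, a receptor of TNFSF14, stood at 0.67, 3.16 and 3.58 TPM in sgEPCR DMSO and at 11.4, 2.04 and 10.3 TPM in sgEPCR UM171, overlapping through the libraries of high mitochondrial share. The difference between responses was 2.62 ± 0.50 (SE, edgeR adjusted p = 0.0015) with them and 2.74 ± 0.14 (adjusted p = 5.7e-10) without them. LTBR, the other receptor of TNFSF14 (chromosome 12, 6375045 to 6391571), had 0, 4 and 4 counts in sgEPCR DMSO and 3, 0 and 1 counts in sgEPCR UM171, against 27 to 87 counts in the 15 libraries of control cells. From the summed counts its ratio to control cells was 0.0867 in DMSO (exact 95% counting interval 0.0364 to 0.178) and 0.0229 in UM171 (0.0062 to 0.0595). TNFRSF1A, its neighbour on chromosome 12, had a log2 fold change of 0.14 ± 0.17 between sgEPCR and control cells in DMSO.

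TNFRSF8 fell in sgEPCR cells from 1.97, 7.62 and 6.76 TPM to 1.22, 0.33 and 1.31 TPM, a log2 fold change of -2.65 ± 0.28 (SE, edgeR adjusted p = 2e-05) where control cells had -0.27 ± 0.26 at the same time. The difference was -2.38 ± 0.38 (adjusted p = 0.0005, not called) and -2.40 ± 0.11 without the 2 libraries of high mitochondrial share (adjusted p = 2.5e-10). The fall in sgEPCR cells was not called without sgEPCR DMSO replicate 2 or 3 or sgEPCR UM171 replicate 1 or 3, and the rise of TNFSF14 in these cells was not called without sgEPCR DMSO replicate 2 or 3. TNFRSF21 fell from 3.74, 7.49 and 7.40 TPM to 3.28, 1.83 and 3.62 TPM, with a log2 fold change of -1.35 ± 0.08 against -0.64 ± 0.08 in control cells. Other receptors had log2 fold changes in sgEPCR cells of 2.41 ± 0.44 (CD40), 1.56 ± 0.21 (TNFRSF11A), 1.32 ± 0.26 (FAS), 1.12 ± 0.33 (TNFRSF10C), 0.74 ± 0.17 (TNFRSF10B), 0.70 ± 0.36 (TNFRSF12A), 0.26 ± 0.14 (TNFRSF10A), 0.03 ± 0.21 (EDA2R), -0.36 ± 0.21 (TNFRSF13C), -0.66 ± 0.17 (TNFRSF1A) and -0.73 ± 0.10 (TNFRSF1B), and were not called. TNFRSF11B, not tested here, had 4, 2 and 2 counts in sgEPCR UM171.

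**Figure D5:**
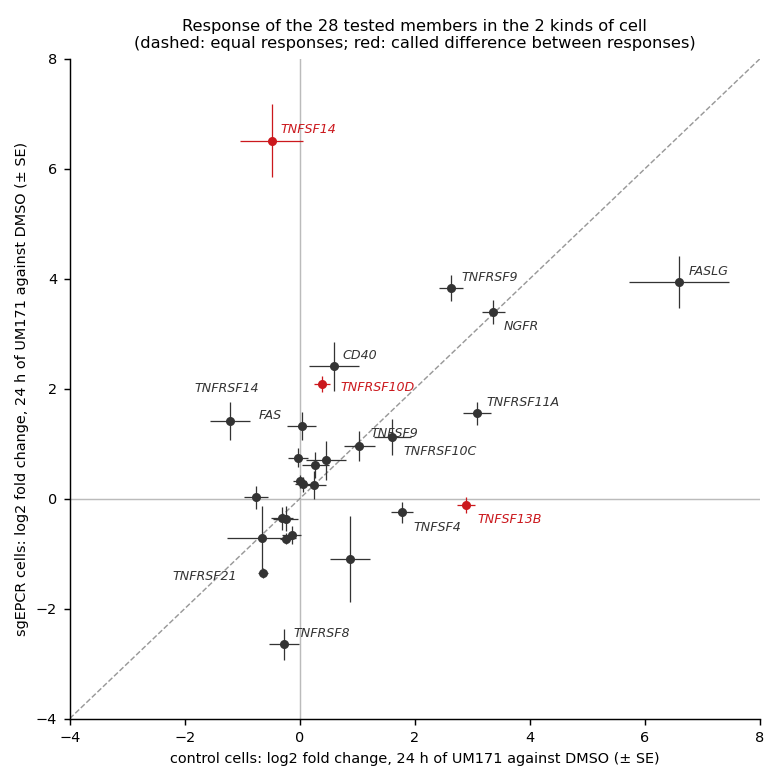
Log2 fold change after 24 h of UM171 in sgEPCR cells (vertical) against that in control cells (horizontal) for the 28 tested members, with SE bars and a dashed line of equal responses. TNFSF14, TNFSF13B and TNFRSF10D, in red, have a called difference, and NGFR lies on the line (3.39 and 3.36); the value of FASLG in control cells depends on the prior count.

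Compared directly with control cells, 1 member was higher in sgEPCR DMSO libraries and 0 were lower (1.43% and 1.41% of all tested genes). By edgeR 11 were lower at an unadjusted p under 0.05, as were 21.1% of all tested genes, and DESeq2 called 1 lower and limma 0. The member called was TNFSF13B, with a log2 fold change of 1.30 ± 0.15 (SE, edgeR adjusted p = 7.7e-05), a call that held in 1 of 12 fits that left out 1 library, that without sgEPCR UM171 replicate 2. Without the 2 libraries of high mitochondrial share TNFRSF11A was also called higher (1.89 ± 0.28) and TNFSF14 (-3.14 ± 0.29) and LTBR (-2.97 ± 0.37) lower, 4 members in all (3.11% of all tested genes higher and 3.40% lower in that fit). In UM171, 0 members were called higher in sgEPCR cells and 5 lower (2.67% and 1.79%). By edgeR 9 were higher at an unadjusted p under 0.05, as were 24.7% of all tested genes, and DESeq2 and limma each called 1 higher. The 5 lower members were LTBR, TNFRSF8 (-2.35 ± 0.28), TNFSF4 (-1.84 ± 0.19), TNFSF13B (-1.71 ± 0.15) and TNFRSF21 (-1.37 ± 0.08). LTBR passed the filter only through control cells, which favours a lower value in sgEPCR cells. Without the 2 libraries of high mitochondrial share 7 were called, with TNFSF14 (3.58 ± 0.15) and TNFRSF14 (1.84 ± 0.10) added as higher (6.09% of all tested genes higher and 3.78% lower). The calls of TNFSF13B and TNFRSF21 held in every fit that left out 1 library. That of TNFRSF8 held in 1 of 12, without sgEPCR DMSO replicate 1. Those of LTBR and TNFSF4 held in 7 of 12, and both were lost without UM171 24 h replicate 1 or 2 or sgEPCR UM171 replicate 3, LTBR also without DMSO replicate 3 or UM171 24 h replicate 3, and TNFSF4 without DMSO replicate 2 or sgEPCR UM171 replicate 1.

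Of the 38 tested genes downstream of the receptors, 6 responded more in sgEPCR than in control cells and 0 less, against 3.60% and 4.17% of all tested genes, and their median difference was 0.24 where that of all tested genes was -0.02. By edgeR 4 responded less at an unadjusted p under 0.05, as did 27.0% of all tested genes, and DESeq2 called 1 and limma 0. The largest called differences were BIRC3 (log2 difference 3.92 ± 0.46, SE), TRAF1 (2.38 ± 0.28), TNFAIP3, the A20 inhibitor of NF-kB (2.25 ± 0.16), and CYLD, a deubiquitinase of the same pathway (1.30 ± 0.11). BIRC3 stood at 0.157 ± 0.038 TPM in sgEPCR DMSO and at 3.73 ± 0.641 TPM in sgEPCR UM171 (SD, n = 3), where control cells went from 0.230 ± 0.010 to 0.390 ± 0.080 TPM. In sgEPCR cells TNFAIP3 went from 3.67 ± 1.15 to 11.4 ± 2.34 TPM. In control cells it stood at 4.56 ± 0.859 TPM in DMSO and 3.10 ± 0.546 TPM at 24 h of UM171. At other times of UM171 control cells averaged more TNFAIP3: 6.91 TPM at 6 h, 6.48 TPM at 48 h and 7.79 TPM at 72 h. BIRC3 and TRAF1 were likewise lower at 24 h than at other UM171 times, with 1.33 and 4.82 TPM at 6 h. CYLD in control cells was instead lowest at 48 h (12.56 TPM). With sgEPCR cells sequenced at 24 h only, responses of these genes that differ in size and in timing cannot be told apart. Without the 2 libraries of high mitochondrial share the log2 differences between responses were 3.97 ± 0.34 for BIRC3, 2.49 ± 0.14 for TRAF1, 2.22 ± 0.12 for TNFAIP3 and 1.23 ± 0.08 for CYLD. In that fit 12 genes of the list were called, 11 responding more and 1 less (TNFAIP8, -1.34), against 9.28% and 9.79% of all tested genes. The calls of TNFAIP3 and CYLD held in 12 of 12 fits that left out 1 library, that of BIRC3 in 2 and that of TRAF1 in 1. In these fits 2 to 9 genes were called, the fewest without UM171 24 h replicate 2, and 3 without any of the DMSO libraries, UM171 24 h replicate 1 or 3 or sgEPCR DMSO replicate 2 or 3.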

How the data were processed

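Poly(A) RNA of 21 OCI-AML5 libraries was sequenced with a stranded kit. For each library the authors deposited expected counts per gene from RSEM, which are not normalized and divide ambiguous reads among genes, and TPM, which RSEM divides by effective transcript length. The submitters' processing notes name CASAVA 1.8.2, Trimmomatic 0.35, STAR 2.5.1b, RSEM 1.2.28 and GRCh38, whereas the methods of the study name kallisto and sleuth. Counts of 45 Y pseudoautosomal entries were added to the matching X genes. The labels give 500 nM UM171 and the study's figure legends another dose.

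Expected counts were rounded and tested with edgeR 4.0.16 in R 4.3.3 (filterByExpr, TMM, glmQLFit, glmQLFTest) without a term for the replicate number. The time course fit held 15 libraries and 16575 genes, and the sgEPCR fit 12 libraries and 15901 genes. A gene was called when it changed by over 2-fold with a Benjamini-Hochberg adjusted p under 0.0001. Each standard error was computed as the size of the log2 fold change over the root of its F statistic. On simulated counts with 200 genes changed 4-fold, the fit recovered 200 with 0 false calls at 72 h (16220 genes) and 200 with 0 for the difference between responses (15578 genes). The simulated spread was the same for all genes and smaller than that of the sgEPCR fit (coefficient of variation 0.187), with no outlying library. It therefore checks the calculation and cannot show how well the sgEPCR fit finds changes. The alternatives comprised limma 3.58.1 on log2(TPM + 1), DESeq2 1.42.0, other scalings, filters and limits, a replicate block and fits without single libraries or the 2 with over 20% mitochondrial counts.

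Members with a mean of 1 TPM or more in a group, or a call, are given by value (28), and the others by their counts. Of the signalling list the 4 largest called values at 72 h and for the difference are named. Members and lists were chosen with earlier results of these data known. Counts over group sums are on total-count scaling, with exact binomial intervals at 95% that cover counting error only. Gene positions are those of GENCODE 44 and upstream sequences those of RefSeq (GRCh38.p14). Python 3.11.15 and matplotlib were used for tables and figures.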

Additional observations from a re-analysis of the deposited data

Results flagged for a closer look

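The responses of control and sgEPCR cells to 24 h of UM171 differed for 3 members past the limits of the interaction test, in which DMSO is labelled 72 h for control and 24 h for sgEPCR cells, so that time in culture and genotype cannot be told apart. For TNFSF14 the log2 response was larger in sgEPCR cells by 7.003 (edgeR adjusted p = 8e-05), from 0.08 to 0.13 TPM in sgEPCR DMSO to 8.84 to 14.1 TPM in sgEPCR UM171. For TNFSF13B the log2 response differed by -3.02 (adjusted p = 1.8e-06), with sgEPCR libraries between 10.0 and 19.0 TPM in either treatment. For TNFRSF10D it was larger in sgEPCR cells by 1.70 (adjusted p = 7.7e-05). The difference of TNFSF13B was called whichever library was left out, and those of TNFSF14 and TNFRSF10D were each called in 2 of 12 such fits. No called member was tested for outlying libraries, because each group held 3.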

How the results depend on the processing

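No called value changed direction in any alternative: of 1729 recomputed values of 78 called changes, 1521 stayed called and 208 did not. This tally includes the looser limit of adjusted p under 0.05 on the same fit, where every called value had to stay called. Values of genes that a stricter filter removed are not in it. Upper quartile scaling kept each count of called genes within 1.5 times of that reported. Scaling by total counts left 2 members lower in sgEPCR UM171 and 2 signalling genes in the difference between responses. It moved the median of all genes from 0.019 to 0.203 (log2) at 6 h, from 0 to -0.249 for genotypes in DMSO, from -0.034 to -0.187 for the step from 6 to 24 h and from -0.013 to 0.156 in sgEPCR cells, so small changes there are relative to the TMM centre. The counts below follow the order 6, 24, 48 and 72 h, the steps from 6, 24 and 48 h, UM171 in sgEPCR cells, genotypes in DMSO, genotypes in UM171, and the difference between responses. At an adjusted p under 0.05 with no minimum change the members called were 20, 21, 22, 23, 21, 15, 20, 18, 12, 15 and 13, and the signalling genes 35 at 72 h and 19 for the difference. That limit also took 62.1%, 69.7%, 72.1%, 75.6%, 67.1%, 45.7%, 57.3%, 52.1%, 33.7%, 43.0% and 45.0% of all tested genes, so these counts are no result about the members. With limma on log2(TPM + 1), which shrinks low genes by construction, the members were 0, 4, 5, 9, 4, 3, 2, 1, 0, 2 and 1, and the signalling genes 3 and 1. DESeq2 gave 3 members for genotypes in DMSO, and 6 members and 10 signalling genes for the difference. With at least 10 counts in every library, which removes members that start near 0, the members were 6 at 48 h, 9 at 72 h, 1 for the step from 24 h and 3 in sgEPCR cells. Without both libraries of high mitochondrial share they were 12 in sgEPCR cells, 4 for genotypes in DMSO and 7 for the difference, with 12 signalling genes. The cause of these shifts was not tested where the construction does not show it.

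Leaving out 1 library gave 2 to 4 members for the step from 24 h, 3 to 5 for that from 48 h, 0 to 1 for genotypes in DMSO, 2 to 6 for genotypes in UM171 and 1 to 4 for the difference, with 2 to 9 signalling genes.

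With the replicate number as a block 0 members were called in each of the 4 sgEPCR comparisons and 0 signalling genes for the difference, while 13, 2, 7 and 10 members kept an adjusted p under 0.05, and the time course counts stayed within 1.5 times. Whether the numbers pair the libraries cannot be told. The deviations of same-numbered sgEPCR libraries correlated at -0.909, -0.907 and 0.856, but each of these groups holds a library of high mitochondrial share, so these values cannot test pairing. Those of the time course had a median of -0.0255, and not every library correlated best with its own number. Each DMSO library did so at 72 h (0.25, 0.11 and 0.294), while its own number at 24 h gave -0.056, -0.099 and -0.136.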
